A study of Mus musculus with 6 samples.

Results

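The 10 genes described here encode heavy chains of class II myosins, and were taken as the rows of the deposited count table with the symbols Myh1, Myh2, Myh3, Myh4, Myh6, Myh7, Myh7b, Myh8, Myh9 and Myh10. All 10 were among the 43074 gene symbols of the table, and all 10 passed the filter on low counts, as did 17433 genes in all. The RNA came from C2C12, a wild-type mouse myoblast line whose cells fuse into multinucleated myotubes when serum is reduced. Untreated cells were taken at day 0 in growth medium with fetal serum. The other cells spent 4 days in differentiation medium with horse serum, to which either DMSO or 4-phenylbutyric acid (4-PBA, at 1 mM) was added. The latter acts as a chemical chaperone and as a histone deacetylase inhibitor. There were 2 libraries in each of the 3 groups, and no group at day 4 was without an added agent. The labels name a single cell line, give no clone and do not say whether the libraries of a group came from separate cultures, so p-values measure the spread between these libraries, which may be technical.

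A class II myosin is built from a pair of heavy chains, each with a motor head that binds actin and hydrolyses ATP and a long tail that packs into filaments, and from light chains bound at the neck. The sarcomeric heavy chains form the thick filaments of striated muscle, and the isoform sets how fast a fibre shortens. Developing and regenerating fibres use the embryonic chain (Myh3) and the perinatal chain (Myh8) before adult fast chains (Myh1, Myh2, Myh4) or the slow chain (Myh7) take over. Myh6 is the alpha chain of the heart, and Myh7b is an ancient relative of the slow and cardiac chains. Myh9 and Myh10 encode the non-muscle chains IIA and IIB, which drive stress fibres, cell migration and cytokinesis in most cells.

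The embryonic and perinatal chains and the 3 fast chains lie side by side on chromosome 11, in the order Myh3, Myh2, Myh1, Myh4, Myh8. Their upstream sequences are shown because all 5 genes rose during differentiation while Myh1 alone among them was called between 4-PBA and DMSO. RefSeq promoter windows of 300 bases (250 before the annotated start and 50 from it on, build GRCm38.p6) matched all 10 members. The 250 bases before the start are printed, 5′ to 3′. In the first 4 sequences, capitals mark a 14-base run that all 4 share, the MEF2 box (the site of the MEF2 muscle factors) and the CArG box (the site of serum response factor). In the Myh3 sequence they mark the E-box CANNTG, the site of MyoD-type factors. The Myh4 and Myh8 sequences also hold CANNTG, which is not marked there.
Myh2, chr11:67170777-67171026, plus strand: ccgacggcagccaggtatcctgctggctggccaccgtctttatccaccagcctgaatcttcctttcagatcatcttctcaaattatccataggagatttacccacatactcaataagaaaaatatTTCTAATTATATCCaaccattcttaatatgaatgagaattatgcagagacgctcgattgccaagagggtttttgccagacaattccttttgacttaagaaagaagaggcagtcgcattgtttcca
Myh1, chr11:67199852-67200101, plus strand: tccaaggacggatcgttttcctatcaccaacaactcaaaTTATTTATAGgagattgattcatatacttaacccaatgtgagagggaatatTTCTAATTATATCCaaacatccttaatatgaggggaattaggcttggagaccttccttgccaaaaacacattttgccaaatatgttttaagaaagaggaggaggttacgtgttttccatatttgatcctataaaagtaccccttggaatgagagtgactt
Myh4, chr11:67237562-67237811, plus strand: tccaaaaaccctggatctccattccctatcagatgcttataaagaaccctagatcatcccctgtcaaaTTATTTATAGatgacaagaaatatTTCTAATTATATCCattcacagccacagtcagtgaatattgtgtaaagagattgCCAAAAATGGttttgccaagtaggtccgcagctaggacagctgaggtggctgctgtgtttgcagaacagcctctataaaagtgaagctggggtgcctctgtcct
Myh8, chr11:67276874-67277123, plus strand: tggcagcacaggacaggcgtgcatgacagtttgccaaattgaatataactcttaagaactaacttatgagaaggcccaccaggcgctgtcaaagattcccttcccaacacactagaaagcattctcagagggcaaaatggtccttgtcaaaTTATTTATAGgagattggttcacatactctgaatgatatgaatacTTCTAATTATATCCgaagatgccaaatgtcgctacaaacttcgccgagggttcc
Myh3, chr11:67078050-67078299, plus strand: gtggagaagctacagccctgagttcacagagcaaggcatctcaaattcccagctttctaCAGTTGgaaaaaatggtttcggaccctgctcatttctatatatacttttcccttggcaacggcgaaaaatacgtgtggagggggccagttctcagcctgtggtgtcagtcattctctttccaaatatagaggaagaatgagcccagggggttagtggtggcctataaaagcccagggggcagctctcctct

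The shared run TTCTAATTATATCC occurred in 4 of 32851 RefSeq windows, those of Myh2, Myh1, Myh4 and Myh8. A MEF2 box was found in the windows of Myh1, Myh4 and Myh8, and in 3.19% of all windows. It was not among the letters of the Myh2 or Myh3 windows. The CArG box in the Myh4 window was the only one among the members, and 1.63% of all windows held one. Every motif was searched on both strands, and each MEF2 box here overlapped a match to TATAAA. Apart from these, TATAAA lay between positions -32 and -24 from the start in Myh1, Myh3 and Myh4. It also lay at 10 to 15 in Myh2, 1 to 6 in Myh6, -123 to -118 in Myh9 and again at -213 to -208 in Myh4. TATAAA was found in 13.6% of all windows, CANNTG in 72.3% and the MCAT element CATTCC in 14.7%. These matches describe the sequence and are not evidence that a factor binds.

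**Figure D1:**
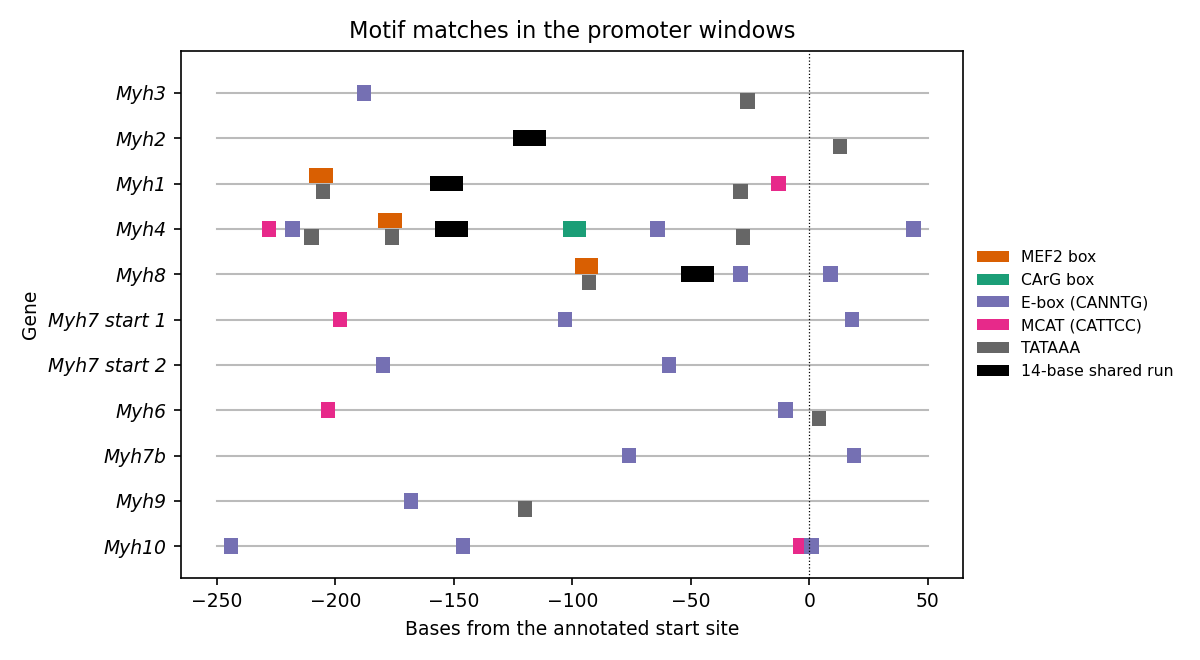
Positions of motif matches in the RefSeq promoter windows of the 10 members (Myh7 has 2 annotated starts), in bases from the annotated start site. The black bar is the 14-base run shared by Myh2, Myh1, Myh4 and Myh8; it lies between positions -160 and -41.

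Introns of 3 members carry the microRNAs known as myomiRs, which are shown because they tie the slow and cardiac genes together. The mature sequences are from RefSeq, with the seed (bases 2 to 8) in capitals.
mmu-miR-208a-3p: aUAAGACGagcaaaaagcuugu
mmu-miR-208b-3p: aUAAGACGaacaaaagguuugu
mmu-miR-499-5p: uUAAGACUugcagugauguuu
The first comes from Myh6 and the second from Myh7, and they share the seed UAAGACG. The third comes from Myh7b, with the seed UAAGACU. The rows of the microRNA genes Mir208a, Mir208b and Mir499 had 0 counts in all 6 libraries. That allows up to 3 counts per library (0.0404 to 0.0617 CPM), for counting error only, and says nothing of mature microRNAs, which cDNA libraries of this kind are not made to capture.

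Totals were 47908926 to 74697397 counts per library. Levels are given as CPM, counts scaled to a common library size after TMM scaling of the library sizes. Genes were compared with edgeR's quasi-likelihood test, and those with a Benjamini-Hochberg adjusted p-value under 0.05 over all 17433 genes were called. Of the 7 myotube markers (Myog, Mymk, Mymx, Ckm, Acta1, Tnnt3 and Actn2), all 7 averaged at least 1 CPM, and their summed level was 68.1 to 72.7 CPM at day 0 and 2834 to 3169 CPM at day 4. Of the 6 myoblast markers, 5 averaged at least 1 CPM, and the exception was the satellite cell factor Pax7. Of 7 cardiomyocyte markers, 3 averaged at least 1 CPM: Gata4 (21.5 to 31.8 CPM), Nppb (3.63 to 5.20) and Nkx2-5 (0.795 to 1.73). Myl7, the atrial light chain gene, had 0 counts in every library, and Tbx5 and the blood marker Ptprc had at most 3. Over the libraries, summed levels were 2163 to 5322 CPM for the myoblast markers, 27.9 to 38.7 for cardiomyocyte, 1030.5 to 2584 for smooth muscle, 54.4 to 82.7 for osteoblast, 0.484 to 10.2 for adipocyte, and 1.82 to 6.36 for endothelial and blood markers.

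Against day 0, differentiation with DMSO raised all 8 sarcomeric members and Myh9 and lowered Myh10. All 10 were called, where 66.3% of all tested genes were, and 9 were higher, where 33.8% of tested genes were (32.6% were lower). The day 0 libraries overlapped with neither day 4 group for any member, where 81.9% (DMSO) and 81.8% (4-PBA) of tested genes had no overlap. With 4-PBA the same 9 were higher and Myh10 was lower, against 65.6% of tested genes called, 33.2% higher and 32.4% lower. The median log2 fold change of the 10 members was 5.83 with DMSO and 5.59 with 4-PBA, against 0.023 and 0.018 over all tested genes. Myh6 and Myh8 reached the filter's minimum in only 1 of the 2 day 0 libraries and entered the test through day 4, so their part in these counts is not support. Both comparisons use the same day 0 libraries. In bulk RNA, fewer cells of a type and less RNA per cell cannot be told apart.

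**Figure D2:**
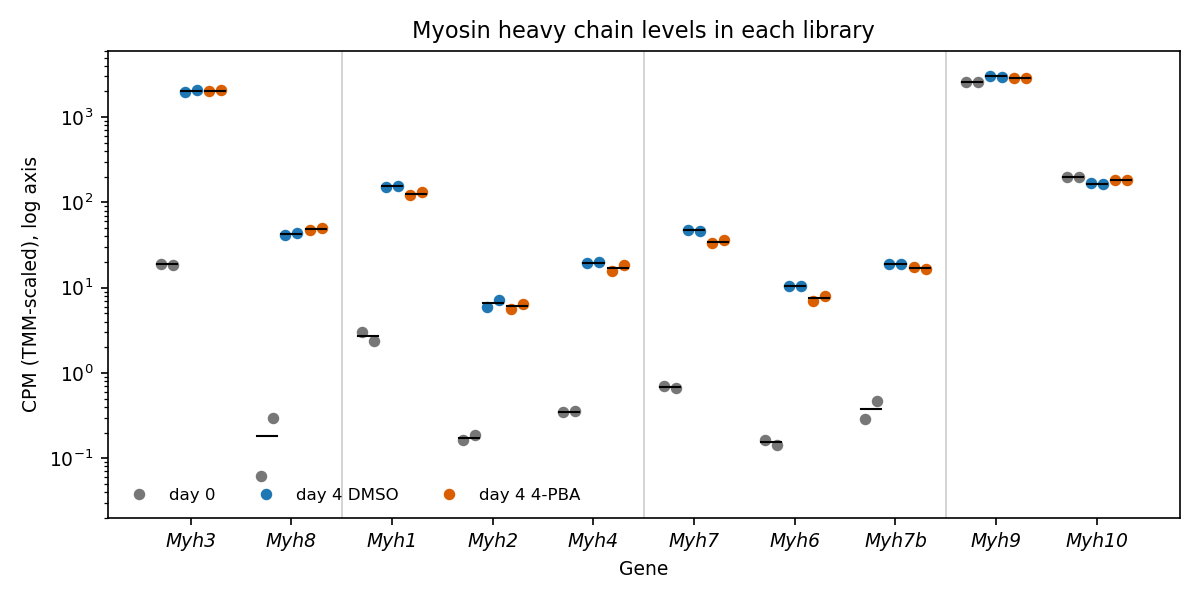
Level of each member in each of the 6 libraries (points, CPM on a log axis) with the mean of each group of 2 (black lines). The 8 sarcomeric members rise between day 0 and day 4, while Myh9 and Myh10 stay within a narrow range.

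Between 4-PBA and DMSO at day 4, Myh1, Myh6 and Myh7 were lower with 4-PBA and Myh10 was higher. These 4 of 10 members were called, where 4.90% of all tested genes were (2.13% higher and 2.78% lower). The libraries of both groups did not overlap for 8 of the 10 members, where 45.5% of tested genes did not overlap. The median log2 fold change of the members was -0.15, against 0.0021 over all tested genes. The count of called members was 2 (Myh1 and Myh7) without 4-PBA library 1. An exact permutation test of 2 libraries against 2 reaches no p below 0.333, and the calls therefore rest on a spread estimated across genes.

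**Figure D3:**
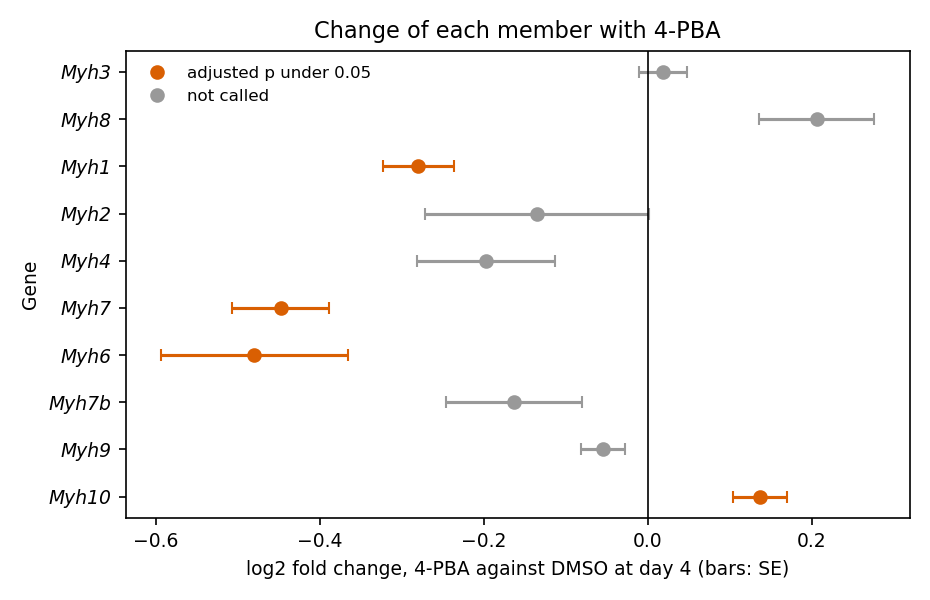
Log2 fold change of each member between 4-PBA and DMSO at day 4, with its standard error (bars). Myh6, Myh7 and Myh1 lie lowest (-0.48, -0.45 and -0.28) and Myh8 and Myh10 lie above 0 (0.21 and 0.14).

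Myh3, the embryonic chain, was the most abundant sarcomeric member in every group. It was at 19.1 and 18.7 CPM at day 0, at 1949 and 2084 CPM in the DMSO libraries, and at 2013 and 2072 CPM in the 4-PBA libraries. Both day 4 groups lay above day 0, and the 4-PBA libraries lay within the range of the DMSO libraries. The log2 fold change against day 0 was 6.74 (SE 0.0397) with DMSO and 6.76 (SE 0.0398) with 4-PBA. Between 4-PBA and DMSO it was 0.018, with a 95% interval of -0.039 to 0.076 and an adjusted p of 0.838 in edgeR. Its sign changed when DMSO library 1 or 4-PBA library 2 was left out.

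Myh8, the perinatal chain, had 3 and 21 counts at day 0, or 0.0617 and 0.299 CPM. It reached 41.1 and 44.0 CPM with DMSO and with 4-PBA 47.4 and 50.7 CPM, the largest fold change of the 10 members. The log2 fold change was 7.71 (SE 0.156) with DMSO and 7.91 (SE 0.154) with 4-PBA. These values rest on low and unequal day 0 counts: the DMSO value was 7.14 without day 0 library 1, and 9.39 without day 0 library 2, when it rested on 3 counts. Both 4-PBA libraries were above both DMSO libraries, with a log2 fold change of 0.21 (SE 0.0700) that was not called (adjusted p = 0.103 in edgeR). It was called under 6 of 14 other settings, where the adjusted p ranged from 0.0111 to 0.538.

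Myh1, the fast IIx chain, was the most abundant of the 3 fast members. It had 3.02 and 2.35 CPM at day 0, 152 and 156 CPM with DMSO, and with 4-PBA 122 and 132 CPM. The 3 groups did not overlap, and 4-PBA stood between day 0 and DMSO. The log2 fold change from day 0 was 5.87 (SE 0.0685) with DMSO and 5.59 (SE 0.0690) with 4-PBA. Myh1 fell by 0.28 (SE 0.0435) with 4-PBA against DMSO (edgeR, adjusted p = 1.54e-04), and was called under all 14 other settings.

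Myh4, the fast IIb chain, had 0.350 and 0.356 CPM at day 0, 19.2 and 20.1 CPM with DMSO, and with 4-PBA 15.8 and 18.6 CPM. Its log2 fold change between the day 4 groups was -0.20 (SE 0.0837), and was not called although the libraries did not overlap (edgeR, adjusted p = 0.203). Myh2, the fast IIa chain, was the least abundant member at day 4. It had 0.165 and 0.185 CPM at day 0, 5.99 and 7.26 CPM with DMSO, and with 4-PBA 5.57 and 6.52 CPM. The day 4 libraries of Myh2 overlapped, with a log2 fold change of -0.14 (95% interval -0.40 to 0.13; edgeR, adjusted p = 0.705) that changed sign without DMSO library 2. From day 0 to DMSO the log2 fold change was 5.79 for Myh4 and 5.22 for Myh2.

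Myh7, the slow chain of type I fibres and also a chain of the heart, had 0.699 and 0.669 CPM at day 0. It rose to 47.5 and 46.6 CPM with DMSO, and was at 33.1 and 35.9 CPM with 4-PBA. No 4-PBA library reached the DMSO level. Myh7 fell by 0.45 (SE 0.0590) on the log2 scale with 4-PBA against DMSO (edgeR, adjusted p = 6.15e-06), the smallest adjusted p of the members, and was called under all 14 other settings. Its log2 fold change from day 0 was 6.10 (SE 0.104) with DMSO and 5.66 (SE 0.107) with 4-PBA.

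Myh6, the alpha chain of the heart, had 8 and 10 counts at day 0 (0.165 and 0.142 CPM). It was at 10.5 CPM in both DMSO libraries, and at 6.94 and 8.07 CPM with 4-PBA. It fell by 0.48 (SE 0.114) on the log2 scale with 4-PBA against DMSO (edgeR, adjusted p = 0.00817), and this was not called without 4-PBA library 1 (adjusted p = 0.197). Myh7b, which sits on chromosome 2 apart from the Myh6 and Myh7 pair on chromosome 14, had 0.288 and 0.470 CPM at day 0. It had 18.9 and 19.2 CPM with DMSO and with 4-PBA 17.6 and 16.5 CPM, with no overlap. The log2 fold change of -0.16 (SE 0.0830) between the day 4 groups was not called (edgeR, adjusted p = 0.323).

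The ratio of Myh6 to Myh7 counts was 0.209 to 0.235 in all 6 libraries, although Myh6 rose 68.2-fold and Myh7 68.8-fold from day 0 to DMSO. At day 0 the ratio rested on only 8 and 10 counts of Myh6 and 34 and 47 of Myh7, too few to fix it closely. No other ratio computed between sarcomeric members had so narrow a range: Myh4 to Myh1 ranged from 0.116 to 0.152 and Myh7b to Myh7 from 0.397 to 0.702. The coding sequences of Myh6 and Myh7 were 91.8% identical in GENCODE M21. Of the 75-base windows of the longest transcripts, 15.5% of those in Myh6 and 15.3% of those in Myh7 also occurred in another gene, and reads from those stretches do not tell the genes apart. The read length and the handling of such reads are not given in the sources used here, and the part of shared reads in the Myh6 level was not tested.

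Windows in more than one gene were also found among the fast chains. Myh1 and Myh2 were 91.1% identical in their coding sequences, and 16.6% of Myh1 and 16.3% of Myh2 windows of 75 bases occurred in another gene. The share was 12.9% for Myh8, 9.68% for Myh4 and 1.86% for Myh3. It was 0.652% for Myh9, 0.622% for Myh10 and 0 for Myh7b. Myh2, with at most 539 counts in a library, had far fewer counts than Myh1, which had up to 11575.

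**Figure D4:**
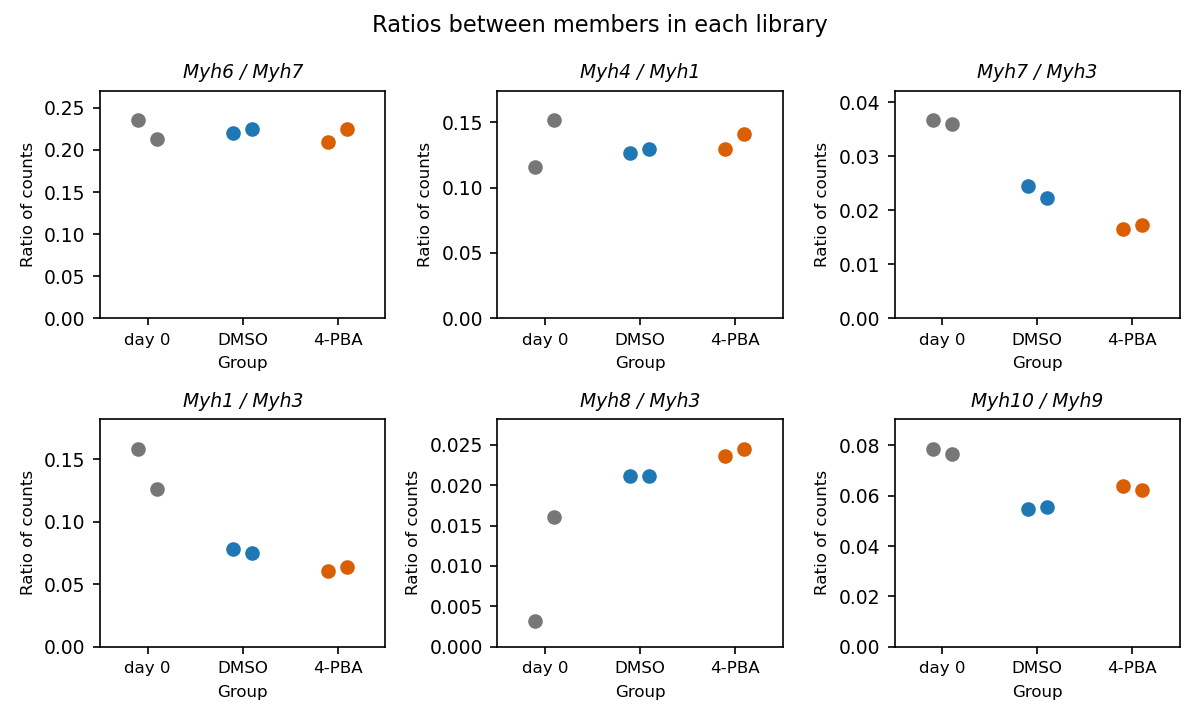
Ratios of raw counts between pairs of members in each library, on axes that start at 0. Myh6 to Myh7 stays between 0.209 and 0.235, while Myh7 to Myh3 and Myh1 to Myh3 are lowest with 4-PBA.

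Antisense genes overlap the exons of several members, and the strand setting of the counting is not given in the sources used here. Myhas shares 515 exon bases with Myh1 and had at most 15 counts in a library. The 9430073C21Rik gene shares 237 exon bases with Myh2 and had 0 counts at day 0 and 29 to 38 at day 4. Mhrt, a transcript opposite Myh7, had at most 2 counts. Myh7b shares 37 exon bases with Trpc4ap, which was at 162 to 173 CPM.

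Myh9, the chain of non-muscle myosin IIA, was the most abundant member at day 0 and changed little. It had 2549 and 2588 CPM at day 0, 3075 and 2915 CPM with DMSO, and with 4-PBA 2857 and 2908 CPM. Its log2 fold change from day 0 was 0.22 (SE 0.0269) with DMSO and 0.17 (SE 0.0269) with 4-PBA, and both were called. Between the day 4 groups it was -0.055 (95% interval -0.11 to -0.0023; edgeR, adjusted p = 0.296), and it was called only without DMSO library 2.

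Myh10, the chain of non-muscle myosin IIB, was the one member that fell during differentiation. It had 201 and 198 CPM at day 0, 169 and 162 CPM with DMSO, and with 4-PBA 182 and 182 CPM. The 4-PBA libraries stood between the other groups and overlapped neither. Myh10 fell by 0.27 (SE 0.0327) with DMSO and by 0.13 (SE 0.0327) with 4-PBA on the log2 scale, and was 0.14 (SE 0.0327) higher with 4-PBA than with DMSO (edgeR, adjusted p = 0.00882). The last call was lost without 4-PBA library 1 (adjusted p = 0.124) or 4-PBA library 2 (adjusted p = 0.110).

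Levels of different genes were compared per kilobase of annotated exons. At day 0 the order was Myh9, Myh10, Myh3, Myh1 and Myh7, each above the next in both libraries. Myh4 and Myh7b overlapped below them, as did Myh2, Myh6 and Myh8. With DMSO, Myh3 (333 ± 15.8 CPM per kb, SD, n = 2) lay above Myh9 (232 ± 8.74), followed by Myh1, Myh10, Myh7, Myh8, Myh4, Myh7b, Myh6 and Myh2 with no overlap between neighbours. With 4-PBA, Myh8 and Myh7 overlapped, as did Myh4 and Myh7b. The order depends on the length used. Per kilobase of the longest coding transcript, Myh9 stood above Myh3 at day 4 (403 against 334 CPM per kb with DMSO). By that length, Myh10 stood above Myh1 with 4-PBA, and Myh8 above Myh7 with no overlap (7.98 against 5.54 CPM per kb).

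The summed level of the 8 sarcomeric members was 23.5 ± 0.505 CPM at day 0, 2316 ± 101 in the DMSO group and 2301 ± 55.3 in the 4-PBA group (SD, n = 2). The total thus differed between the day 4 groups by less than the spread between libraries. Myh3 made up 82.1% ± 0.699 of the sarcomeric level per kilobase at day 0, 88.8% ± 0.291 in the DMSO group and 90.5% ± 0.298 in the 4-PBA group. The fast chains together made up 13.3% ± 1.57, 7.60% ± 0.166 and 6.35% ± 0.259. The slow and cardiac chains made up 4.20% ± 0.489, 2.64% ± 0.129 and 2.06% ± 0.0116. The day 4 groups did not overlap for any of these shares. Within the non-muscle pair, Myh10 made up 8.75% ± 0.159 at day 0, 6.40% ± 0.0625 with DMSO and 7.24% ± 0.0997 with 4-PBA.

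**Figure D5:**
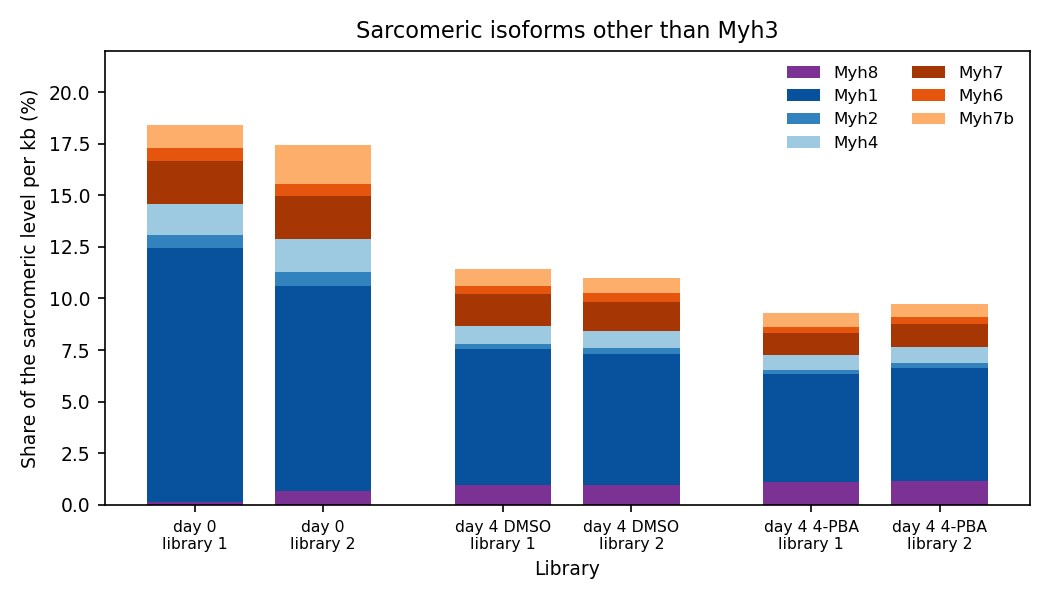
Share of each sarcomeric isoform other than Myh3 in the summed sarcomeric level per kilobase, in each library. The stacked bars are lowest with 4-PBA, where Myh3 holds the rest, 90.3% and 90.7%.

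Ratios within a library do not depend on its scaling. The Myh7 to Myh3 ratio was 0.0244 and 0.0223 with DMSO and 0.0165 and 0.0173 with 4-PBA, a log2 difference of -0.47. The Myh8 to Myh1 ratio was 0.269 and 0.282 with DMSO and 0.388 and 0.385 with 4-PBA, a log2 difference of 0.49. The Myh10 to Myh9 ratio was 0.0549 and 0.0557 against 0.0638 and 0.0625, a log2 difference of 0.19. Each pair of groups did not overlap, and the exact two-sided permutation p was 0.333, the smallest this design allows. The summed level of the myotube markers was also lower in both 4-PBA libraries (2834 and 2879 CPM) than in both DMSO libraries (2975 and 3169 CPM), with most of the sum from Acta1 (1696 and 1757 CPM with DMSO, 1601 and 1635 with 4-PBA). Mymk, Mymx, Ckm, Tnnt3 and Actn2 were also lower in both 4-PBA libraries than in both DMSO libraries. Mymx was at 51.1 and 49.3 CPM with 4-PBA and 60.6 and 67.0 with DMSO, and Actn2 at 22.8 and 20.4 against 22.9 and 23.6. Of the myotube markers, Myog alone did not separate the groups (277 and 297 CPM with DMSO, 289 and 287 with 4-PBA). The summed myoblast markers were lower with 4-PBA as well (5012 and 5053 CPM, against 5322 and 5307 with DMSO). Most of that sum came from Des (2043 and 2060 CPM with 4-PBA, 2225 and 2198 with DMSO) and Itga7 (2232 and 2264, against 2398 and 2426). Both were also higher at day 4 than at day 0. Cdh15 was higher with 4-PBA (600 and 596 CPM, against 563 and 544), as was Myf5 (23.14 and 24.52, against 23.05 and 22.64). Myod1 and Pax7 overlapped. The part of either sum in the lower Myh1, Myh6 and Myh7 was not tested.

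The other class II heavy chain genes were scarce. Myh14, the non-muscle chain IIC, rose from 0.288 and 0.256 CPM at day 0 to 2.61 and 2.79 CPM with DMSO, and was at 2.91 and 2.74 CPM with 4-PBA. Myh11, the smooth muscle chain, had at most 19 counts in a library, although the smooth muscle actin Acta2 was at 847 to 2391 CPM. Myh13, the extraocular chain, had 1 and 0 counts at day 0 and 6 to 15 at day 4. Its day 4 mean was 1.94 times a floor of 3 counts per library with DMSO and 3.85 times with 4-PBA. These ratios leave out the counting error at day 4. Myh13 was called against day 0 with both agents (edgeR). It reached the filter's minimum only with 4-PBA (15 and 10 counts) and entered the test through that group, so these calls are not support. The DMSO call was lost under 4 of 12 other settings, the DESeq2 Wald test among them, and the 4-PBA call under 1 of 12. Myh15 had at most 5 counts and was not tested. None of the 3 tested genes was called between 4-PBA and DMSO by edgeR or limma-voom, DESeq2 gave an adjusted p for Myh14 alone, which was not called, and 0 of 3 had an unadjusted p under 0.05 in edgeR (smallest 0.191).

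Genes with the most similar profile were found by the distance between centred log2 CPM over the 6 libraries, among 10989 genes. The nearest gene to Myh7 was Ctrb1 (distance 0.136), then the thin filament gene Neb (0.233). Myh3 was nearest to Mb, the myoglobin gene (0.136), and to the embryonic light chain gene Myl4 (0.226). Myh2 was nearest to the fast light chain gene Myl1 (0.151), Myh1 and Myh4 to Coq8a (0.200 and 0.179), and Myh7b to Prkag3 (0.157). Myh6 was nearest to Ctrb1 (0.276). No gene came close to Myh8, whose nearest was the sodium channel gene Scn4a at 1.22. The day 0 libraries of Myh8 had few and unequal counts (3 and 21), and their part in this distance was not tested. Myh9 was nearest to Fan1 (0.0338) and Myh10 to Adam15 (0.0224). These are descriptions over libraries that share the same groups.

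All 10 tested light chain genes were higher with DMSO than at day 0, where 33.8% of tested genes were, the embryonic chain Myl4 reaching 562 ± 11.6 CPM and the slow chain Myl2 36.9 ± 2.22 CPM (SD, n = 2). Myl2, with 0 and 10 counts at day 0, entered the test through day 4, so its part in this count is not support. With 4-PBA against DMSO, 3 of 10 were called, where 4.90% of tested genes were (2.13% higher, 2.78% lower). The median log2 fold change was 0.00049, against 0.0021 over all tested genes. The non-muscle chains Myl9 and Myl12a were higher with 4-PBA, by 0.27 (SE 0.0451) and 0.10 (SE 0.0310) on the log2 scale, and Myl6b fell by 0.20 (SE 0.0517). Myl12a lost its call under 7 of 14 other settings. Myl6b lost its call without DMSO library 2 (-0.14, adjusted p = 0.113 in edgeR) and without 4-PBA library 1 (-0.12, adjusted p = 0.349). Without DMSO library 2, the called light chains were Myl2, Myl9, Myl12a and Myl12b, all higher with 4-PBA. The count was 1 without 4-PBA library 1 and 5 without DMSO library 1.

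Of 21 genes of thick filament assembly and myosin folding, 17 were higher and 4 lower with DMSO than at day 0, where 33.8% and 32.6% of tested genes were. The myosin-binding gene Mybpc2 was at least 99.5-fold higher, and the chaperone genes Unc45a, Hsp90aa1 and Hsp90ab1 were lower. Mybpc2 (1 and 0 counts at day 0) and Mybpc1 (6 and 5 counts) entered the test through day 4, so their part in this count is not support. Against DMSO, 4-PBA changed 8 of 21, where 4.90% of tested genes were called. All 8 were lower, where 2.78% of tested genes were, among them Mybph, Myom1, Myom2, Ttn, Trim54, Trim63 and Mylk2. The median log2 fold change was -0.16, against 0.0021 over all tested genes. Ttn, the giant spring protein of the sarcomere, was at 2614 and 2690 CPM with DMSO and with 4-PBA 2175 and 2206 CPM, and fell by 0.28 (SE 0.0263; edgeR, adjusted p = 1.31e-08). The M-band gene Myom2 fell by 0.22 (SE 0.0350). The count was 5 with the DESeq2 Wald test, 5 without DMSO library 2, 5 without 4-PBA library 1 and 4 without 4-PBA library 2.

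Of 30 regulators of muscle myosin gene choice, 18 were higher and 8 lower with DMSO than at day 0, where 66.3% of tested genes were called (33.8% higher, 32.6% lower), Myog rising from 7.89 to 287 CPM and Mef2c from 7.49 to 69.6 CPM. With 4-PBA against DMSO, 3 were lower, where 2.78% of tested genes were: Tbx15, a factor of fast fibres, fell by 0.24 (SE 0.0462; edgeR, adjusted p = 8.35e-04), the deacetylase gene Hdac4 by 0.18 and Tead4 by 0.15. The median log2 fold change of the 30 genes was -0.040. Tead4 lost its call under 8 of 14 other settings and Hdac4 under 4 of 14. Only Tbx15 was called without 4-PBA library 1, without 4-PBA library 2 and with the DESeq2 Wald test. Of 21 non-muscle myosin II regulators, 11 were higher and 5 lower with DMSO than at day 0, against the same background of 66.3% called (33.8% higher, 32.6% lower). With 4-PBA against DMSO, 2 of 21 were called, where 4.90% of tested genes were: Ppp1r12b and Mrtfb fell by 0.24 and 0.15. Ppp1r12b lost its call under 3 of 14 other settings (without DMSO library 2, 4-PBA library 1 or 4-PBA library 2). Mrtfb lost its call under 6 of 14 (the DESeq2 Wald test, the replicate block, and without day 0 library 1, DMSO library 1, 4-PBA library 1 or 4-PBA library 2). Without DMSO library 2, the called genes were Mrtfb and S100a4. The median was -0.017.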

How the data were processed

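Total RNA of 6 C2C12 libraries was treated with DNase and sequenced from directional cDNA libraries, per the labels' protocols. The deposited values are raw counts per gene symbol, 1 column per library, with no column of any other sample. The build was GRCm39, per the submitters' processing notes. The aligner, counter, annotation, strand setting and read length are not given in the sources used here.

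The test was that of edgeR 4.0.16 under R 4.3.3 (filterByExpr, TMM, robust glmQLFit, 1 mean per group over all 6 libraries, 3 residual degrees of freedom), with Benjamini-Hochberg adjustment over 17433 genes. With a common biological coefficient of variation of 3.74%, replicate spread and library number limited precision for members with many counts, while counting error exceeded this figure for sarcomeric members other than Myh3 at day 0. At day 4, counting error also exceeded it for Myh2 (346 to 539 counts) and for Myh6 in all libraries but DMSO library 2 (431 to 661 counts). Within each group the 2 libraries differed beyond sampling noise (chi-square per degree of freedom 3.98 to 7.15). Intervals and floors of 3 counts cover fitted or counting error only. On simulated counts with 200 changed among 16961 genes, 4-PBA against DMSO, edgeR called 177, with 12 false calls. Genes with low counts were not among those changed. Most were changed by more than any member was between 4-PBA and DMSO (at most 1.39-fold, Myh6). The simulation therefore does not give the sensitivity for the members. Exon lengths, overlaps and sequence identity came from GENCODE M21 (GRCm38), a different build from the counts. Union exon length exceeds the length of the longest coding transcript for every member but Myh4, with the widest gaps for Myh7, Myh8, Myh9 and Myh10. Promoters and microRNAs came from RefSeq (GRCm38.p6). Python 3.11.15, Biopython 1.88, scipy 1.17.1 and matplotlib 3.10.9 were used.

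The members and the gene lists were chosen with earlier results of these data known. Named were all members and other class II heavy chains, in each list the 3 called genes with the smallest adjusted p between 4-PBA and DMSO and the 2 with the largest change from day 0, and the 3 genes nearest to each member; further list genes were named after their values were seen, and 1 gene that the rule names is not reported here. Marker lists covered myoblast, myotube, adipocyte, osteoblast, smooth muscle, cardiomyocyte, and endothelial and blood cells. Alternatives tried were size factors of DESeq2, scaling by library size alone, 2 other filters, the DESeq2 1.42.0 Wald test, limma-voom (limma 3.58.1), only the 4 libraries compared, a replicate block, leaving out each library, and another gene length.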

Additional observations from a re-analysis of the deposited data

How the results depend on the processing

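In both comparisons with day 0, all 10 members were called in the same direction under all 14 alternatives. Between 4-PBA and DMSO, the count of called members was 4 to 5 under the 8 alternatives other than leaving out 1 library, and 2 to 6 when 1 library was left out; Myh1 and Myh7 alone were called under all 14. Where a library was left out of a group, its lone partner was assumed to vary like the other groups. With a library left out, the log2 fold change of Myh2 ranged from -0.27 to 0.015 (the latter without DMSO replicate 2), and that of Myh3 from -0.030 (without DMSO replicate 1) to 0.069, with -0.0020 without 4-PBA replicate 2. Called light chains numbered 5 with no filter and 5 with limma-voom, and 1 to 5 with a library left out, against 3. Called thick filament genes numbered 5 with the DESeq2 Wald test and 4 to 9 with a library left out, against 8. Called regulators of gene choice numbered 1 with the DESeq2 Wald test and 1 to 4 with a library left out, against 3. Called non-muscle regulators numbered 1 with the DESeq2 Wald test, 1 with the replicate block and 0 to 2 with a library left out, against 2. Per kilobase of the longest coding transcript, the developmental share was 81.3%, 89.0% and 91.0% in the day 0, DMSO and 4-PBA groups (82.5%, 89.8% and 91.6% by union of exons), and the slow and cardiac share was 5.06%, 3.23% and 2.50%. Over all genes, 371 were higher and 484 lower with 4-PBA, 461 and 435 with library size only, and 296 to 1194 were called with a library left out. The cause of these differences was not tested.

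Replicate numbers in the titles did not pair the libraries: deviations of same-numbered libraries had correlations of -0.028, -0.0031 and -0.012. With the replicate block, 4 members were called between 4-PBA and DMSO and 768 genes in all.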
